A study of Homo sapiens with 6 samples.

Results

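HNRNPF and 4 genes of the same RNA-binding family (HNRNPH1, HNRNPH2, HNRNPH3 and GRSF1) were taken by name from a table of 11846 genes. HNRNPF was chosen by its measured FPKM in these same libraries, where it was lower after knockdown, so its difference is described here with no test. The 4 paralogs were added by family membership and not by their own values, and they were tested. The samples were polyadenylated RNA of the human gastric adenocarcinoma line AGS, with 3 libraries after knockdown of ANXA2P1 and 3 control libraries. ANXA2P1 is a pseudogene that arose when a transcript of the annexin A2 gene was copied back into the genome. The labels of the control samples name a scrambled shRNA (scr-shRNA) and a pool of shRNAs against ANXA2P1, those of the knockdown samples say only that ANXA2P1 was knocked down, and the study's methods describe CRISPR interference with a dCas9/KRAB repressor in transduced cells. The means of knockdown therefore differed between these sources, and all 6 libraries came from this 1 cell line. The level of ANXA2P1 itself was not analysed here, and so the extent of the knockdown is not known from these values. Recovered totals were 19010940 to 22911995 reads per library. The epithelial markers EPCAM, KRT8, KRT18, KRT19, CLDN4 and CLDN7 were all in the table, with summed FPKM of 1498 to 1692 in knockdown libraries and 1432 to 1527 in control libraries. Of 6 gastric markers, TFF1, TFF2 and PGC were in the table, with summed FPKM of 4.55 to 8.05 in knockdown libraries and 3.86 to 6.78 in control libraries, and MUC5AC, MUC6 and GKN1 were not. Of 10 fibroblast, endothelial and blood markers only COL1A1 was in the table. The records of the groups were worded and registered separately, and a batch that followed the groups cannot be told apart from the knockdown.

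The hnRNP F/H proteins bind runs of guanines in RNA through quasi-RRM domains, a variant of the RNA recognition motif. Bound near a splice site or a polyadenylation site, they change which exon or which 3′ end is used, and they keep G-rich RNA unfolded that would otherwise form a G-quadruplex. HNRNPF, HNRNPH1 and HNRNPH2 encode 3 quasi-RRM domains each and recognise very similar sequences, HNRNPH3 encodes a shorter relative, and GRSF1 encodes a relative that works in the RNA granules of mitochondria.

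HNRNPF, HNRNPH1 and HNRNPH2 are close copies of each other, and HNRNPH3 and GRSF1 are more distant relatives. Their sequences decide whether reads can be assigned to 1 of these genes. In GENCODE release 29 on GRCh38, HNRNPF lies at chr10:43385617-43409166 on the minus strand and HNRNPH2 at chrX:101408295-101414133 on the plus strand. Both carry the annotation's retrogene tag and have their whole coding sequence in 1 exon, of 1245 bases in HNRNPF and 1347 bases in HNRNPH2. HNRNPH1 at chr5:179614178-179634784 on the minus strand has a coding sequence of 1347 bases in 12 coding exons. HNRNPH3 at chr10:68331174-68343191 on the plus strand and GRSF1 at chr4:70815782-70839945 on the minus strand have 9 coding exons each. Translated from the GENCODE transcripts, the HNRNPF protein of 415 residues was 77.6% identical to HNRNPH1, 75.4% to HNRNPH2, 56.1% to HNRNPH3 and 37.4% to GRSF1. HNRNPH1 and HNRNPH2 were 96.2% identical to each other. Over the whole coding sequence, HNRNPF shared 78.1% of bases with HNRNPH1, 76.7% with HNRNPH2, 63.8% with HNRNPH3 and 56.95% with GRSF1. The 60-base window below was picked as the stretch of HNRNPF most alike in HNRNPH1, HNRNPH2 and HNRNPH3. The window is thus nearer than the rest of the coding sequence, and it holds the longest run shared by HNRNPF and HNRNPH1. It starts at coding base 370 of HNRNPF, HNRNPH1 and HNRNPH2, base 85 of HNRNPH3 and base 787 of GRSF1, and capitals mark bases that differ from HNRNPF.
HNRNPF: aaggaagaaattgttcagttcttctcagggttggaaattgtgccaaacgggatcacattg
HNRNPH1: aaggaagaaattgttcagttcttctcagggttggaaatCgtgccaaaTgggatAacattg
HNRNPH2: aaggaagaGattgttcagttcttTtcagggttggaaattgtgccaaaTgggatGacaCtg
HNRNPH3: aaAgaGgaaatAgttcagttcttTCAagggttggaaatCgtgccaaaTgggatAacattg
GRSF1: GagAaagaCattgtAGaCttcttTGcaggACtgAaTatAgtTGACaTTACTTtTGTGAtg
HNRNPH1 differed from HNRNPF at 3 of these 60 bases, HNRNPH2 at 5, HNRNPH3 at 9 and GRSF1 at 28. The longest exact run shared with the HNRNPF coding sequence, which lies inside this window for both genes, was 38 bases in HNRNPH1 and 23 bases in HNRNPH2. None of the 2706 stretches of 50 bases in the longest principal HNRNPF mRNA occurred in a transcript of a gene outside the family. None occurred in the longest principal mRNA of a paralog either, and other transcripts of the paralogs were not searched. The longest principal mRNAs of HNRNPH1 and HNRNPH2 shared 1 such stretch, shown because these near-identical proteins have the same bases over that length nowhere else: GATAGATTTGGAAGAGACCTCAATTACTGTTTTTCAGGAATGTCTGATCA. Of the 50-base stretches of HNRNPH1, 0.64% also occurred in the pseudogene HNRNPH1P3. For HNRNPH2 the share was 15.0%, nearly all in RPL36A-HNRNPH2, an annotated read-through gene on the same strand that shares 362 exon bases with it and is not in the table. Exact matches of 50 bases thus touched this HNRNPF mRNA nowhere in the sequences searched, while the HNRNPH2 level can contain reads of the read-through gene. Matches with differing bases were not searched, so reads shared between the copies are not excluded.

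HNRNPF was lower in knockdown cells. It had 85.0, 85.6 and 70.6 FPKM (fragments per kilobase of transcript, scaled to the mapped fragments of the library) in knockdown libraries 1, 2 and 3, against 155, 149 and 149 FPKM in control libraries 1, 2 and 3. Every knockdown library lay below every control library, and knockdown library 3 was the lowest. The mean was 80.4 ± 8.51 FPKM in knockdown cells and 151 ± 3.48 FPKM in control cells (SD, n = 3 each), so that knockdown cells held 53.2% of the control level. On the log2(FPKM + 0.1) scale the difference was -0.91 with a standard error of 0.086. This was the most negative difference among the 10813 genes whose mean FPKM reached 0.5, which describes why the gene was chosen. It rested on 5186 to 6383 recovered reads in the knockdown libraries and 10939 to 11984 in the control libraries, for which counting error alone is between 0.913% and 1.39%. The coefficient of variation over replicates was 10.6% in knockdown cells and 2.31% in control cells. In bulk RNA, fewer cells that express the gene and less RNA per cell cannot be told apart.

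None of the 4 paralogs passed the test. With limma and Benjamini-Hochberg adjustment over all 10813 genes at 0.05, 14 genes were called in the whole table, 12 lower and 2 higher in knockdown cells, which is 0.129% of the genes tested. The 3 knockdown and the 3 control libraries did not overlap for HNRNPF and GRSF1, 2 of the 5 genes, and for 19.0% of all genes tested.

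**Figure D1:**
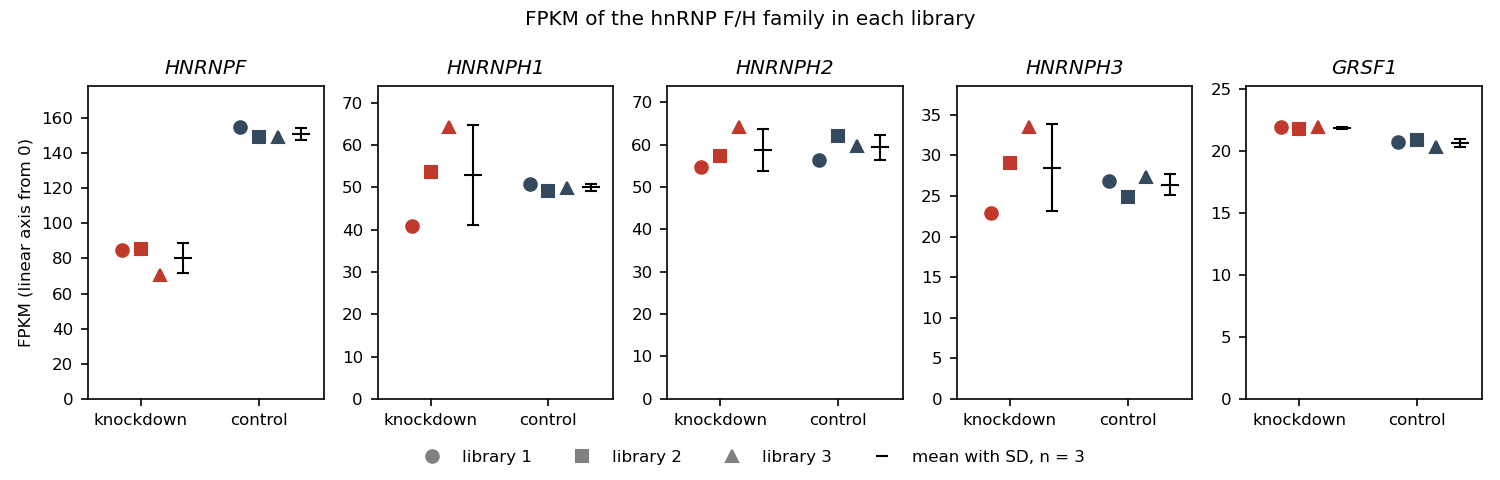
FPKM of each gene (y axis, linear from 0, a separate scale for each gene) in the 3 knockdown libraries (red) and the 3 control libraries (dark blue), with the mean and SD of each group in black. HNRNPF lies at 70.6 to 85.6 FPKM in knockdown and 149 to 155 FPKM in control libraries, whereas the groups of HNRNPH1, HNRNPH2 and HNRNPH3 overlap.

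HNRNPH1, the broadly expressed paralog that regulates splicing at G-rich elements, had 40.8, 53.6 and 64.3 FPKM in knockdown libraries 1, 2 and 3, against 50.9, 49.2 and 49.8 FPKM in the control libraries. Knockdown library 1 lay below all control libraries and knockdown libraries 2 and 3 lay above them, so the groups overlapped. The means were 52.9 ± 11.8 FPKM in knockdown cells and 49.96 ± 0.831 FPKM in control cells (SD, n = 3 each). The log2 difference was 0.06 with a standard error of 0.14, and its 95% interval ran from -0.28 to 0.39 (limma, adjusted p = 0.914). The sign rested on single libraries: without knockdown library 3 the log2 difference was -0.10, and without knockdown library 1 it was 0.23 (limma, adjusted p = 0.167).

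HNRNPH2, the copy on the X chromosome with 1 coding exon, had 54.6, 57.4 and 64.2 FPKM in knockdown libraries 1, 2 and 3, against 56.3, 62.1 and 59.6 FPKM in the control libraries. The knockdown libraries held both the lowest and the highest value. The means were 58.7 ± 4.92 FPKM in knockdown cells and 59.3 ± 2.92 FPKM in control cells (SD, n = 3 each). The log2 difference was -0.02, with a 95% interval from -0.20 to 0.16 (limma, adjusted p = 0.956). It was positive without knockdown library 1 (0.03), without control library 2 (0.02) and with libraries weighted by their quality (0.05).

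HNRNPH3, the shorter relative, had 22.9, 29.01 and 33.5 FPKM in knockdown libraries 1, 2 and 3, against 26.8, 24.9 and 27.4 FPKM in the control libraries. As for HNRNPH1, knockdown library 1 was the lowest of all 6 and knockdown libraries 2 and 3 were the highest. The means were 28.5 ± 5.34 FPKM in knockdown cells and 26.4 ± 1.30 FPKM in control cells (SD, n = 3 each). The log2 difference was 0.09 with a 95% interval from -0.20 to 0.39 (limma, adjusted p = 0.828). Without knockdown library 3 it was -0.03, and without knockdown library 1 it was 0.24 (limma, adjusted p = 0.139). RUFY2, which encodes an endosomal adaptor protein, lies on the opposite strand and shares 115 exon bases with HNRNPH3. RUFY2 had 1.85, 2.47 and 2.83 FPKM in the knockdown libraries and 2.96, 3.22 and 2.80 FPKM in the control libraries, and without a stated strand setting its reads in the shared bases cannot be separated from those of HNRNPH3.

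GRSF1, the mitochondrial relative, had 21.9, 21.8 and 21.9 FPKM in knockdown libraries 1, 2 and 3, against 20.7, 20.9 and 20.3 FPKM in the control libraries. All knockdown libraries lay above all control libraries, as for 9.86% of all genes tested. The means were 21.9 ± 0.0761 FPKM in knockdown cells and 20.6 ± 0.308 FPKM in control cells (SD, n = 3 each). The log2 difference was 0.08 with a standard error of 0.054 and a 95% interval from -0.04 to 0.21, and it did not pass the test (limma, adjusted p = 0.630). The spread over the knockdown libraries, a coefficient of variation of 0.348%, was smaller than the counting error of this gene, 1.61% to 1.71% at 3431 to 3840 reads per library. Among the 6910 genes whose mean FPKM reached 5, 0.2% had a smaller log2 SD over the knockdown libraries.

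HNRNPH1 and HNRNPH3 had a wider spread over the knockdown libraries than over the control libraries, and they moved together. The log2 SD over knockdown libraries was 0.33 for HNRNPH1, above that of 95.8% of the 6910 genes, and 0.28 for HNRNPH3, above that of 92.3%. Over control libraries it was 0.02 for HNRNPH1 and 0.07 for HNRNPH3. The median gene had 0.11 in knockdown and 0.06 in control libraries. HNRNPH1, HNRNPH2 and HNRNPH3 were all lowest in knockdown library 1 and highest in knockdown library 3, an order that 29.8% of the 10813 genes shared, whereas HNRNPF was lowest in knockdown library 3. Within a library HNRNPH1 and HNRNPH3 kept a near-fixed ratio of 1.78, 1.85 and 1.92 in knockdown libraries 1, 2 and 3, against 1.90, 1.98 and 1.82 in the control libraries. The ratio of HNRNPH1 to HNRNPH2 was less even, at 0.747, 0.933 and 1.00 in the knockdown libraries and 0.904, 0.793 and 0.835 in the control libraries. Knockdown library 1 also had the fewest recovered reads of the 6, 19010940, and the part of depth in this spread was not tested.

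**Figure D2:**
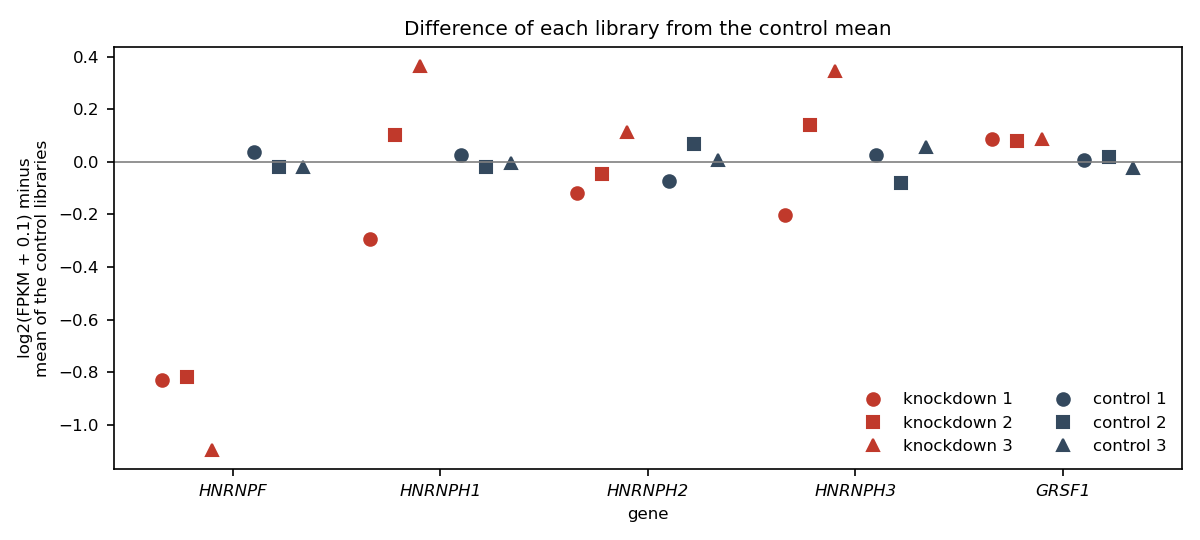
Difference of each library from the mean of the control libraries (y axis, log2(FPKM + 0.1)) for each gene, with knockdown libraries in red to the left and control libraries in dark blue to the right. The knockdown libraries lie between -1.10 and -0.82 for HNRNPF, between -0.29 and 0.36 for HNRNPH1 and between -0.20 and 0.35 for HNRNPH3.

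HNRNPF held a smaller share of the family in knockdown cells. It made up 41.8%, 37.9% and 30.3% of the summed FPKM of HNRNPF, HNRNPH1, HNRNPH2 and HNRNPH3 in knockdown libraries 1, 2 and 3, against 53.6%, 52.2% and 52.1% in the control libraries. The share was lower in every knockdown library, and this follows from the lower level for which HNRNPF was chosen, so it was not tested. The summed FPKM of these 4 genes was 203, 226 and 233 in the knockdown libraries and 289, 285 and 286 in the control libraries. Without HNRNPF the sum of the 3 hnRNP H genes was 118, 140 and 162 in the knockdown libraries and 134, 136 and 137 in the control libraries, so these groups overlapped. The ratio of HNRNPF to HNRNPH1 was 2.08, 1.598 and 1.10 in the knockdown libraries, against 3.05, 3.03 and 2.99 in the control libraries. The ratio of HNRNPF to HNRNPH2 was 1.56, 1.49 and 1.10 in the knockdown libraries, against 2.75, 2.40 and 2.50 in the control libraries.

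On the FPKM scale, the order of the levels in control cells was HNRNPF, HNRNPH2, HNRNPH1, HNRNPH3 and GRSF1, with no overlap between neighbours over the 3 libraries. In knockdown cells HNRNPF was still first and HNRNPH2 and HNRNPH1 overlapped. HNRNPF stood above 98.4% of the genes tested by its mean level in control cells, HNRNPH2 above 94.5%, HNRNPH1 above 93.2%, HNRNPH3 above 85.0% and GRSF1 above 80.1%. This order, however, depended on the transcript length by which the reads were divided. From the recovered reads, the length behind each FPKM could be worked out, and for 80.1% of 10762 genes it was within 5% of the union of all annotated exons, after removal of a common factor of 1.06. For HNRNPH1 this length was 9480 bases, equal to the union over its 50 annotated transcripts, of which 20 are retained-intron or processed transcripts and 4 are targets of nonsense-mediated decay. Its principal mRNAs measure only 2248 to 3667 bases. For HNRNPH3 the length was 5375 bases, against a principal mRNA of 2339 bases. For HNRNPF, HNRNPH2 and GRSF1 it was 3273, 2296 and 7736 bases, against longest principal mRNAs of 2755, 2223 and 6666 bases.

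Divided by the longest principal mRNA instead, HNRNPH1 was nearer to HNRNPF in level. HNRNPF then had a length-scaled read level (reads per kilobase, scaled to the recovered reads of the library in the manner of FPKM) of 107, 108 and 88.9 in knockdown libraries 1, 2 and 3, against 195, 188 and 188 in the control libraries. HNRNPH1 had 112, 147 and 176 in the knockdown libraries, against 139, 135 and 137 in the control libraries. HNRNPH1 was thus higher than HNRNPF in all 3 knockdown libraries and HNRNPF was higher than HNRNPH1 in all 3 control libraries. With the shortest principal mRNA of each gene this order was the same, at 135, 136 and 112 for HNRNPF in the knockdown libraries beside 183, 240 and 288 for HNRNPH1. Mixed choices changed it. With the shortest mRNA for HNRNPF and the longest for HNRNPH1, HNRNPF was higher in knockdown library 1. With the longest for HNRNPF and the shortest for HNRNPH1, HNRNPH1 was also higher in the control libraries, at 227, 221 and 223 beside 195, 188 and 188 for HNRNPF. In recovered reads, not divided by any length and so also larger for a longer transcript, HNRNPH1 had 7819, 11571 and 13690 in the knockdown libraries and HNRNPF 5623, 6383 and 5186. In the control libraries HNRNPH1 had 11392, 10469 and 11475 reads and HNRNPF 11984, 10939 and 11848. HNRNPH2 and HNRNPH3, which differed on the FPKM scale, overlapped with the longest principal mRNA, at 64.4 ± 5.33 and 69.5 ± 12.9 in knockdown cells and 65.0 ± 3.29 and 64.3 ± 3.10 in control cells (SD, n = 3 each). How many reads came from retained introns cannot be seen in a table of gene levels, so neither scale can be preferred from these values. Fold changes between the groups do not depend on the length. The share of HNRNPF in the 4 genes was 27.0% ± 5.39 in knockdown cells and 41.7% ± 0.584 in control cells with the longest principal mRNA (SD, n = 3 each).

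**Figure D3:**
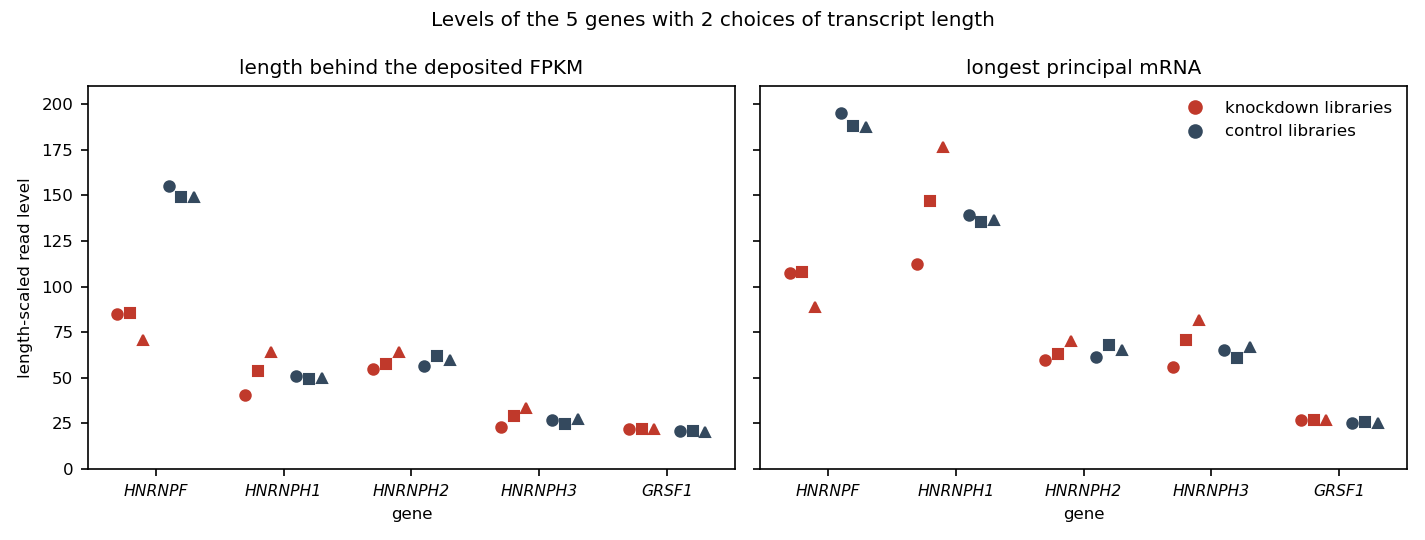
Level of each gene (y axis, length-scaled read level, linear from 0) in each knockdown library (red) and control library (dark blue), as deposited FPKM on the left and divided by the longest principal mRNA on the right. HNRNPH1 lies at 40.8 to 64.3 in knockdown libraries on the left and at 112 to 176 on the right, where it stands above HNRNPF in each knockdown library.

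By the similarity of their pattern over the 6 libraries, 5 genes stood nearest to HNRNPF among 997 genes with a mean FPKM of 5 or more and a range of at least 0.5 on the log2 scale. They were VANGL1 (r = 0.998), a planar cell polarity protein, DDAH1 (r = 0.998), an enzyme that breaks down methylated arginines, MYO1D (r = 0.992), an unconventional myosin, MFSD14B (r = 0.991), and CBFB (r = 0.988), the partner subunit of the RUNX transcription factors. Each coefficient is Pearson's r over 6 libraries that form 2 groups, so it mostly measures how cleanly a gene separates them, and it is given as a description. DDAH1 had 25.0, 25.7 and 22.9 FPKM in the knockdown libraries and 37.5, 37.9 and 37.1 FPKM in the control libraries. VANGL1 had 7.77, 7.47 and 6.85 FPKM in the knockdown libraries and 10.8, 10.6 and 10.6 FPKM in the control libraries. All 5 genes were, like HNRNPF, lowest in knockdown library 3, and they were picked for a pattern like that of HNRNPF over these same libraries.

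Of 8 related gene lists, 1 held a called gene, while 0.129% of all genes tested were called. That gene was HK2, in the list of hnRNP F/H targets. The study had singled HK2 out with the help of these samples, so this call is not independent evidence. Some genes, such as PTBP1 and HNRNPA1, stand in more than 1 list. Of 22 other hnRNP genes none was called, 16 had a negative and 6 a positive difference, and the median log2 difference was -0.07, beside 0.01 over all genes tested, of which 46.9% were negative. Without knockdown library 1 the median of these hnRNP genes was -0.03, and 1 of them, HNRNPUL1, was called. With that library left out, 255 genes were called in the whole table, beside 14 with all 6 libraries. HNRNPUL1, an hnRNP U-like protein of the DNA damage response, had 86.6, 89.7 and 83.4 FPKM in the knockdown libraries and 106, 102 and 109 FPKM in the control libraries. Its knockdown libraries lay below all control libraries, as for 9.13% of all genes tested. The log2 difference of HNRNPUL1 was -0.29 (limma, adjusted p = 0.137), or -0.29 with an adjusted p of 0.0444 (limma) without knockdown library 1. PCBP1, a poly(C)-binding protein, had a log2 difference of -0.29 with overlapping groups (limma, adjusted p = 0.489). Of 4 other proteins with quasi-RRM or similar domains (ESRP1, ESRP2, RBM12 and RBM12B) none was called, and the median was -0.03, or between -0.06 without knockdown library 3 and 0.00 without knockdown library 1. RBM12 differed by -0.11 and ESRP2, an epithelial splicing regulator, by 0.06 (limma, adjusted p = 0.586 and 0.792). Among 12 splicing regulators that act beside hnRNP F/H none was called, and the median was -0.01, or between -0.04 without knockdown library 2 and 0.04 without knockdown library 1. RBFOX2, a regulator of alternative exons, had 15.6, 16.6 and 17.4 FPKM in the knockdown libraries and 15.0, 15.3 and 14.8 FPKM in the control libraries (limma, adjusted p = 0.504). HNRNPA1, which often opposes splice-site use by other regulators, averaged 202 ± 18.9 FPKM in knockdown cells and 223 ± 2.76 FPKM in control cells (SD, n = 3 each; limma, adjusted p = 0.575).

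The 12 genes listed here for other proteins that bind or unwind G-quadruplexes all had negative differences, but none was called. The list does not hold every such gene. It was chosen with earlier results of these data known, so the shared sign is not independent evidence. The median log2 difference of these 12 genes was -0.16, and for 4 of them the knockdown libraries lay below all control libraries, beside 9.13% of all genes tested. CNBP, a zinc-finger protein that binds G-rich RNA, had 75.9, 82.0 and 75.4 FPKM in the knockdown libraries and 96.0, 89.6 and 90.3 FPKM in the control libraries (log2 difference -0.24, limma, adjusted p = 0.223). DHX36, a G-quadruplex helicase, had 6.26, 7.94 and 8.93 FPKM in the knockdown libraries and 8.95, 9.03 and 9.24 FPKM in the control libraries (log2 difference -0.25, limma, adjusted p = 0.510). The list depended on knockdown library 1: without it the median was -0.05, with 9 negative and 3 positive. Of 12 factors of the cleavage and polyadenylation machinery none was called. Their median was 0.00, or between -0.03 without knockdown library 3 and 0.02 without knockdown library 1. PAPOLA, the poly(A) polymerase, had 25.9, 33.1 and 34.9 FPKM in the knockdown libraries and 38.6, 35.9 and 36.9 FPKM in the control libraries (log2 difference -0.26, limma, adjusted p = 0.458), and CPSF1 differed by 0.07 (limma, adjusted p = 0.710).

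Of 13 genes whose transcripts are described as hnRNP F/H targets, 1 fell, none rose and the median was 0.05, beside 0.111% of all genes tested that fell. Without knockdown library 1 the median was -0.02, with 8 negative and 5 positive differences, and without control library 1 it was 0.01. The one that fell was HK2, hexokinase 2, the first enzyme of glycolysis, with 11.7, 11.3 and 10.9 FPKM in the knockdown libraries and 15.6, 17.4 and 16.1 FPKM in the control libraries (log2 difference -0.53, SE 0.068, limma, adjusted p = 0.0406). The study singled HK2 out by overlapping these samples with RNAs bound by hnRNP F and with glycolysis genes. Its place in the list is therefore not independent evidence here. The study also reported hnRNP F binding to HK2 mRNA and lower HK2 mRNA and protein after ANXA2P1 knockdown by other assays, which are not part of these data. HK2 was no longer called when knockdown library 2, knockdown library 3 or any control library was left out, with array weights, without trend or robust settings, or with a replicate block. In several of these settings hardly any gene was called. The whole table held 0 calls without knockdown library 2, without any 1 control library, and without trend or robust settings. It held 1 call with the replicate block, 5 without knockdown library 3 and 14 with array weights. HRAS, the proto-oncogene GTPase, had 21.3, 20.4 and 20.7 FPKM in the knockdown libraries and 18.1, 17.9 and 18.6 FPKM in the control libraries (log2 difference 0.19, limma, adjusted p = 0.275). Gene levels hold no information on exon choice or on the 3′ ends used. It is through these that hnRNP F/H mostly act on the listed transcripts. For HK2 the study reports that hnRNP F and ANXA2P1 raise the use of the proximal polyadenylation site. BCL2L1, another listed transcript, differed by 0.02 (limma, adjusted p = 0.952).

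No gene of the lists around GRSF1 was called. Of 24 components of the mitochondrial RNA granule and the mitochondrial RNA-processing machinery there were 12 negative and 12 positive differences, with a median of 0.00. This split rested on single libraries, with 7 negative and 17 positive without knockdown library 1 (median 0.04) and 15 negative and 9 positive without knockdown library 2 (median -0.01). TFAM, which packages and transcribes mitochondrial DNA, had a log2 difference of -0.15, and RPUSD4, a pseudouridine synthase, one of 0.13 (limma, adjusted p = 0.573 and 0.507). Of the 13 protein-coding transcripts of the mitochondrial genome, a set of transcripts that GRSF1 acts on, the median was 0.00, or between -0.02 without knockdown library 2 and 0.06 without knockdown library 1. Their summed FPKM ran from 51111 to 53465 in knockdown libraries and from 50690 to 53069 in control libraries. MT-CYB and MT-ND4 differed by 0.04 and 0.06 (limma, adjusted p = 0.853 and 0.854).

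**Figure D4:**
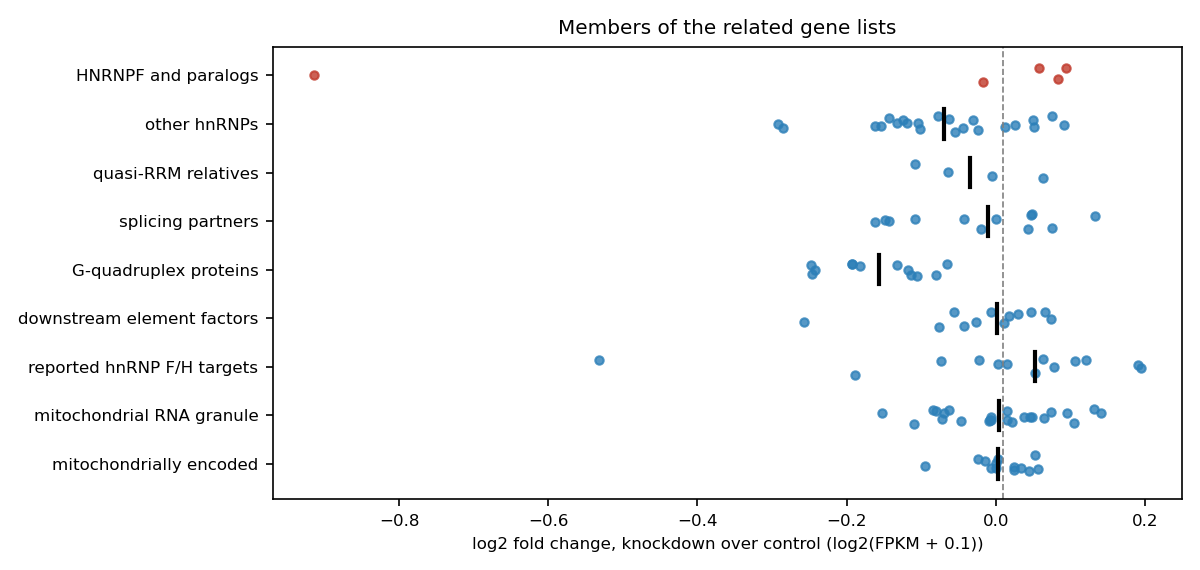
Log2 fold change of knockdown over control (x axis, on log2(FPKM + 0.1)) for each tested gene of the family (top, red) and of 8 related gene lists (blue), with the median of each list as a black bar and the median of all genes tested, 0.01, as a dashed line. HNRNPF at -0.91 and HK2 at -0.53 lie apart from the other points, and all 12 genes of the G-quadruplex list lie left of 0. Without knockdown library 1, 9 of these 12 differences were negative and 3 positive.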

How the data were processed

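The authors captured mRNA with oligo-dT beads and deposited 1 table of FPKM values for 6 AGS libraries. Bowtie2, TopHat and hg38 are named in the submitters' processing notes, while these sources do not name the counter, annotation, strand setting or filter. Groups came from the treatment label. The labels call the knockdown replicates biological, and where separate cultures were not used p-values measure only technical spread. Whole reads could be fitted for 99.98% of the genes, within 0.001 to 0.05 reads. On simulated data, with the library depths given, the true reads were found for 97.9% of 1500 genes. The model was also tested on simulated data. Differences were fitted with limma 3.58.1 in R 4.3.3 (eBayes with trend and robust) on log2(FPKM + 0.1) for the 10813 genes whose mean FPKM reached 0.5, over all 6 libraries with no covariate. Such fold changes understate the change of low genes. Benjamini-Hochberg adjustment ran over all tested genes at 0.05. Intervals are at 95%. Alternatives were a pseudocount of 1, no filter or a filter of 5, limma without trend or robust, array weights, 2 other scalings, a replicate block, each library left out and, chosen after seeing the data, limma's voom on recovered reads (19 genes called) and principal mRNA lengths (APPRIS principal isoforms of GENCODE release 29). Sequences were read from GENCODE release 29 transcripts with Python 3.11.15 and Biopython 1.88. The members and gene lists were chosen with earlier results of these data known. Named were the 5 members, every called gene and the 2 genes with the smallest p of each list, the 5 genes most like HNRNPF, and overlapping neighbours or copies. BCL2L1 was added after its values were seen.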

Additional observations from a re-analysis of the deposited data

How the results depend on the processing

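HNRNPF stayed lower in all 15 alternatives, with log2 differences of -1.01 to -0.82, and of -0.96 to -0.82 with 1 library left out. GRSF1 stayed positive (0.07 to 0.10) and none of the 4 paralogs was called under any alternative. HNRNPH2 became positive with array weights (0.050), without control replicate 2 (0.017) and without knockdown replicate 1 (0.034), over a range of -0.082 to 0.034 with 1 library left out. Without knockdown replicate 3, HNRNPH1 was at -0.10 and HNRNPH3 at -0.032. With 1 library left out the range was -0.10 to 0.23 for HNRNPH1 and -0.032 to 0.24 for HNRNPH3. The number of genes called, 14, was 27 with a filter of mean FPKM of at least 5, 0 with limma without trend or robust (1168 at an unadjusted p under 0.05), and 0 to 255 with 1 library left out. It was 255 without knockdown library 1, 5 without knockdown library 3, and 0 in each other case, with 698 to 822 genes at an unadjusted p under 0.05. Deviations of same-numbered libraries from their group means correlated at -0.34, -0.47 and -0.12, so they showed no shared positive deviation. Whether same-numbered libraries were prepared together cannot be told from these values. A replicate block left 1 gene called. The log2 level over HNRNPF in control cells, on longest and then shortest principal mRNAs, was -0.47 and -0.10 for HNRNPH1 (-1.60 on FPKM), -1.55 and -1.88 for HNRNPH2 (-1.35 on FPKM), -1.57 and -1.90 for HNRNPH3 (-2.52 on FPKM). For GRSF1 it was -3.24 on the shortest (-2.87 on FPKM). The cause of these changes was not tested, other than the length itself.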
